A study of Mus musculus with 18 samples.

Results

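A set of 9 genes of fatty acid oxidation and of the PPAR nuclear receptors was followed through 3 mouse cancer cell lines given sildenafil. They are the receptors Ppara and Ppard, the carnitine palmitoyltransferases Cpt1a and Cpt2, the oxidation enzymes Acadl, Acadm and Hadha, and the PPAR targets Pdk4 and Angptl4. These 9 of the 55450 genes in the count table were taken by symbol, and the set was chosen by the measured log2 fold change of Cpt1a, which was much higher with sildenafil in LLC and 4T1. The sildenafil contrasts in those 2 lines therefore took part in the choice, and their values for these genes are given as a description with no p. The contrast in MC38 did not enter the choice and was tested. Levels in untreated cells were tested between lines, except those of Cpt1a, whose control levels in LLC and 4T1 are part of the fold change that chose the set.

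The 4T1 line comes from a mammary carcinoma, MC38 from a colon adenocarcinoma and LLC from the Lewis lung carcinoma, and all are labelled W.T. for genotype. In each, 3 control libraries came from cells given the solvent DMSO and 3 from cells given 100 µM sildenafil citrate, which inhibits the cGMP-degrading phosphodiesterase PDE5. Cells were treated for 24 hours in 4T1 and MC38 and for 48 hours in LLC. 4T1 was grown in RPMI and the other lines in DMEM, each with 10% fetal bovine serum, so that line, time and medium cannot be told apart in a comparison between lines. The labels do not state whether replicate libraries are separate cultures, so a p-value here weighs a difference against the spread among the libraries alone, which could be technical.

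Long-chain fatty acids reach the mitochondrial matrix through the carnitine shuttle. Cpt1a, on the outer membrane, makes acylcarnitine from acyl-CoA and is inhibited by malonyl-CoA, the translocase Slc25a20 carries acylcarnitine across the inner membrane, and Cpt2 turns it back into acyl-CoA. The acyl-CoA dehydrogenases Acadl (long chains) and Acadm (medium chains) then start each round of beta oxidation, and the trifunctional protein, made of Hadha and Hadhb subunits, carries out the later steps on long chains. PPAR alpha and PPAR delta are fatty acid-activated transcription factors that bind DNA with the retinoid X receptor and drive many of these genes in liver and muscle. Among their classical targets are Pdk4, a kinase that turns off pyruvate dehydrogenase, and Angptl4, a secreted inhibitor of lipoprotein lipase.

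Library totals ran from 41070021 to 61600646 counts in 4T1, from 29438187 to 36417399 in MC38 and from 26348654 to 32129771 in LLC. Levels below are CPM, counts divided by the size of the library, which was scaled by TMM factors over all 18 libraries. The level of the gene Gm26917, in CPM of the unscaled total, differed with treatment: 157 to 163 in 4T1 controls and 243 to 284 with sildenafil, 8898 to 14071 and 4893 to 5898 in MC38, and 9668 to 29653 and 5883 to 13877 in LLC. Of 6 epithelial markers, Epcam and Cldn7 had no count in MC38, and Epcam, Krt18 and Cldn7 had none in LLC. The summed level of the 6 went from 2082 to 2147 CPM in 4T1 controls to between 1801 and 1845 CPM with sildenafil, from 2526 to 2589 CPM to between 2024 and 2171 CPM in MC38, and from 203 to 228 CPM to between 182 and 189 CPM in LLC. The summed level of 5 mesenchymal markers went from 3438 to 3524 CPM to between 3930 and 3957 CPM in 4T1, from 5825 to 6106 CPM to between 5137 and 5303 CPM in MC38, and from 4211 to 5200 CPM to between 5061 and 5116 CPM in LLC. The summed level of 7 adipocyte markers stayed at or under 0.723 CPM and that of 5 hepatocyte markers at or under 0.114 CPM in every library, so both cell types' markers were near 0. The summed level of 7 fibroblast markers went from 26.5 to 29.1 CPM in 4T1 controls to 51.4 to 59.7 CPM with sildenafil, from 1020 to 1041 CPM to between 945 and 955 CPM in MC38, and from 1103 to 1141 CPM to between 2134 and 2169 CPM in LLC. The summed level of 8 leukocyte markers went from 9.71 to 10.2 CPM to between 37.4 and 38.4 CPM in 4T1, from 5.92 to 6.39 CPM to between 9.75 and 10.5 CPM in MC38, and from 2.57 to 3.15 CPM to between 4.65 and 5.62 CPM in LLC. Cd3e had no count in any line, and Adgre1 had none in 4T1 and MC38. Within some of these sums, markers moved opposite ways. In 4T1, Krt19 and Epcam rose (log2 0.81 and 0.28), while Krt8, Krt18, Cldn7 and Cdh1 fell (-0.40, -0.29, -0.14 and -0.07). In MC38, S100a4 rose (0.16) and Vim fell (-0.25). Pdgfra and Pdgfrb rose there (0.29 and 0.35), while Col1a1 and Col3a1 fell (-0.66 and -0.23). In LLC the 3 tested fibroblast markers all rose (Col3a1 0.92, Pdgfra 1.07 and Pdgfrb 0.83). Of the leukocyte markers, Cd68 alone had enough counts to be tested in 4T1 (log2 1.93). Cd68 and Csf1r rose in MC38 (0.67 and 0.75) and Lyz2 rose in LLC (1.16). No tested leukocyte marker was called lower in any line. The part of these markers and of Gm26917 in the results below was not tested, except where a value with Gm26917 as a covariate is given. In bulk libraries, fewer cells of a type and less RNA per cell cannot be told apart.

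Upstream sequence is shown for the 3 members that were higher with sildenafil in the MC38 test (Cpt1a, Acadl and Acadm), and for the gap between Hadha and Hadhb, 2 genes that were both lower there. Promoter windows from RefSeq (GRCm38.p6) matched 8 of the 9 members. Angptl4 was not matched. Each window was searched over the 250 bases before the RefSeq start, on both strands, for AGGTCA (the core hexamer of nuclear receptor sites, TGACCT on the other strand), for AGGTCANAGGTCA (the repeat that PPAR and its partner bind, which contains 2 copies of that hexamer), for CACGTG (an E-box) and for GGGCGG (a GC box, CCGCCC on the other strand). Capitals mark AGGTCA or GGGCGG on either strand, and each sequence is written 5′ to 3′ on the strand given.
Cpt1a, chr19:3323051-3323284, plus strand: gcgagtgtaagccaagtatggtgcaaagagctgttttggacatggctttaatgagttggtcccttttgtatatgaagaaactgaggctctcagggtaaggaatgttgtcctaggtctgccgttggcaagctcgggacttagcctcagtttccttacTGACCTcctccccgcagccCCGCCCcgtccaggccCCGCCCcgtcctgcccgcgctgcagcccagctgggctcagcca
Acadl, chr1:66863310-66863559, minus strand: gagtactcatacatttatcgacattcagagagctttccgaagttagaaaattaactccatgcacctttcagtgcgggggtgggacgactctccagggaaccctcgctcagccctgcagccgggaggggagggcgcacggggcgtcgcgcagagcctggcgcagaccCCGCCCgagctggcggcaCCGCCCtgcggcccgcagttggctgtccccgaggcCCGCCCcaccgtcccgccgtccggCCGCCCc
Acadm, chr3:153944644-153944893, minus strand: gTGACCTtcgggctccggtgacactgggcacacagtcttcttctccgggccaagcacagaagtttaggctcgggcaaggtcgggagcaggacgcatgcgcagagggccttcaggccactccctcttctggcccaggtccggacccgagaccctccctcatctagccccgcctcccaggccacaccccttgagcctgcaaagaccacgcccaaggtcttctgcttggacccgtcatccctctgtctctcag
Hadha-Hadhb, chr5:30155163-30155247, plus strand: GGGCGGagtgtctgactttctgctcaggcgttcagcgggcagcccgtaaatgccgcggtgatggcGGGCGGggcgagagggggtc
The Cpt1a stretch ends before the first exon of the GENCODE transcript nearest to the RefSeq start. It lies in an intron of a GENCODE transcript that starts further upstream, from which the gene start given below is taken. It holds 1 AGGTCA core and 2 GC boxes. Acadl holds 4 GC boxes and no AGGTCA core, and Acadm holds 1 AGGTCA core at its far end and no GC box. No member's window held the full repeat or the E-box. Over 32851 RefSeq promoter windows of the same length, 14.0% held the AGGTCA core, 0.033% the repeat, 6.02% the E-box and 32.7% the GC box. A match is a description of these letters and not a binding site.

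Neither PPAR alpha nor PPAR gamma was present above a trace in any line. Ppara (chromosome 15, 85734983 to 85802819, plus strand) had no count in the 6 LLC libraries, which allows at most 0.0341 CPM in the LLC controls and 0.033 CPM with sildenafil (3 counts over the 3 libraries of a group). In 4T1 it had no count in any control library and 0, 3 and 0 counts with sildenafil. The MC38 libraries held 7, 8 and 2 counts in controls and 3, 7 and 15 with sildenafil, too few for the gene to enter the test. Pparg, the third receptor of the family, had 0 counts in all 6 MC38 libraries, and sums of 4 and 13 counts in the 4T1 control and sildenafil groups and of 14 and 20 counts in LLC.

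PPAR delta was the receptor with counts in all lines. Ppard (chromosome 17, 28232700 to 28301474, plus strand) stood at 67.9, 66.9 and 69.2 CPM in 4T1 controls and at 73.5, 71.8 and 73.4 CPM with sildenafil. Each treated 4T1 library lay above each control, by a log2 fold change of 0.08 ± 0.03 (standard error, SE; here and below with 3 libraries a group). In MC38, Ppard stood at 4.17, 5.16 and 5.10 CPM in controls and at 4.02, 4.22 and 5.00 CPM with sildenafil. Those groups overlapped, and the log2 fold change of -0.12 ± 0.13 did not pass the test (edgeR adjusted p = 0.484). LLC controls had 17.3, 15.4 and 10.6 CPM, and treated LLC libraries 11.2, 9.60 and 9.32 CPM. The third LLC control lay between the treated libraries, and the log2 fold change was -0.54 ± 0.19. With Gm26917 as a covariate the log2 fold change was -0.10 ± 0.11, and a link between Gm26917 and Ppard was not tested. Gm26917 stood at 29653, 21545 and 9668 CPM of the unscaled total in these controls. With no covariate the log2 fold change was -0.54 with DESeq2, -0.52 with a replicate block and -0.52 in the fit over 18 libraries. Without the third control and with no covariate it was -0.72.

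Cpt1a, the malonyl-CoA-sensitive entry enzyme, was higher with sildenafil in all lines, least in MC38. The gene lies on chromosome 19 from 3322334 to 3385733 on the plus strand. Its level was 28.0, 27.0 and 28.7 CPM in 4T1 controls and 55.5, 54.1 and 65.4 CPM with sildenafil, a fold change of 2.06 (log2 1.04 ± 0.07). LLC controls had 43.8, 40.2 and 39.8 CPM and treated LLC libraries 112, 115 and 116 CPM, a fold change of 2.73 (log2 1.45 ± 0.05). In both lines the groups were far apart, and these are the values that chose the gene. MC38, which took no part in that choice, had the highest control level, at 63.1, 61.9 and 65.1 CPM, and 75.8, 71.5 and 75.0 CPM with sildenafil. Every treated MC38 library lay above every control, and Cpt1a rose 1.17-fold (log2 0.22 ± 0.04, edgeR adjusted p = 0.000207). With sildenafil the order of the lines was LLC, MC38, 4T1.

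Cpt2, the inner-membrane partner, did not follow Cpt1a. Cpt2 (chromosome 4, 107903981 to 107923610, minus strand) stood at 18.5, 18.3 and 19.4 CPM in 4T1 controls and at 21.4, 21.1 and 20.7 CPM with sildenafil (log2 0.15 ± 0.05). It was the other way round in LLC, with 37.1, 37.9 and 35.7 CPM in controls and 30.2, 31.1 and 32.7 CPM with sildenafil (log2 -0.26 ± 0.05). Groups did not overlap in either line. MC38 had 16.5, 18.9 and 18.5 CPM in controls and 17.1, 17.2 and 16.3 CPM with sildenafil, with overlap, and the log2 fold change of -0.09 ± 0.06 did not pass the test (edgeR adjusted p = 0.262).

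The ratio of Cpt1a to Cpt2 counts in the same library does not depend on the scaling between libraries. It was 1.49 ± 0.02 (SD, n = 3) in 4T1 controls and 2.77 ± 0.34 with sildenafil. In LLC it went from 1.12 ± 0.06 to 3.65 ± 0.10, and in MC38 from 3.55 ± 0.27 to 4.40 ± 0.23. The range in treated LLC libraries, 3.54 to 3.72, overlapped that of MC38 controls, 3.28 to 3.83, while the controls of the 2 lines were well apart. Treated and control ranges did not overlap in any line. As a count ratio it also holds the lengths of both genes, and only its change within a gene pair can be read.

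**Figure D1:**
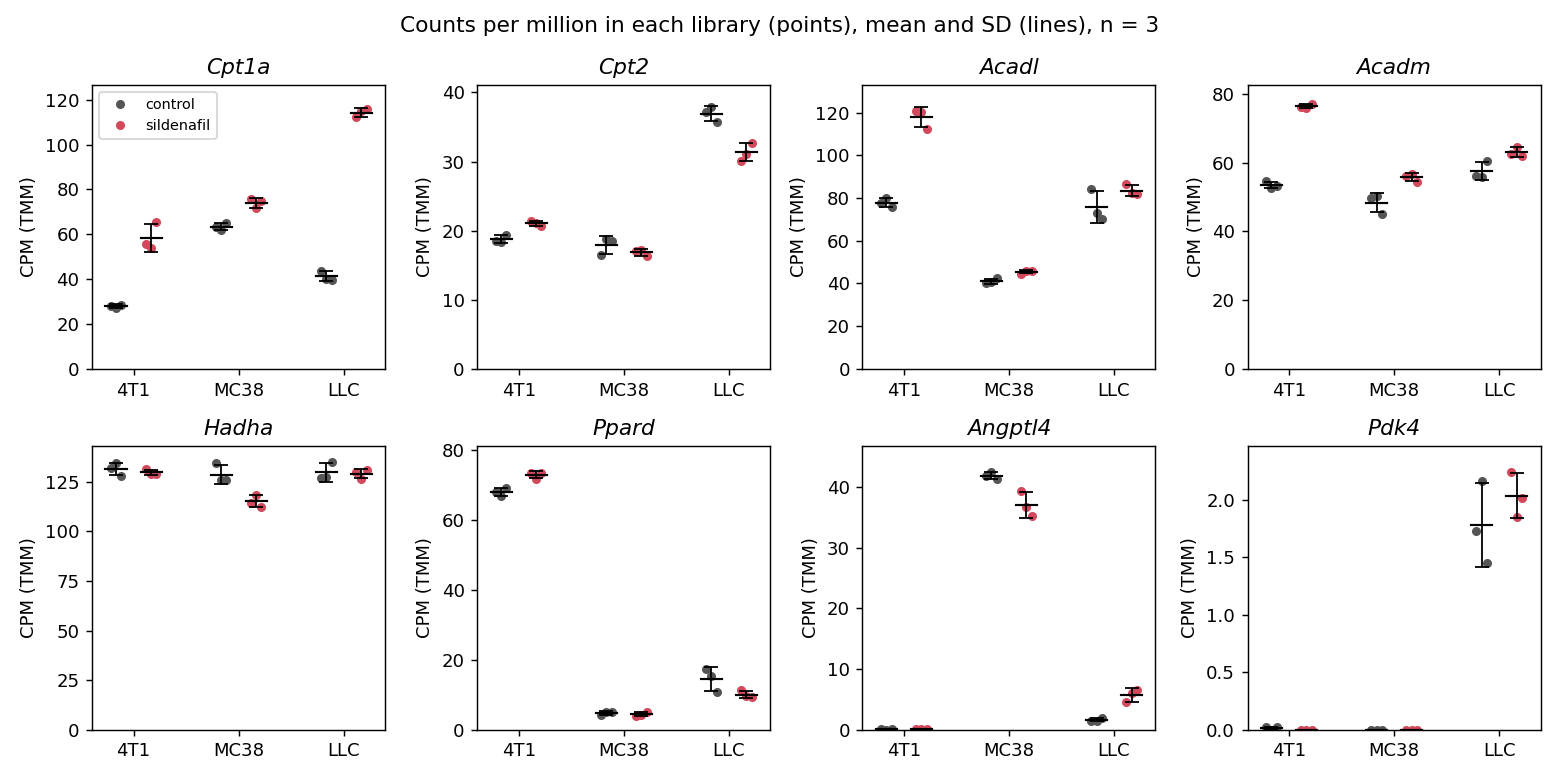
Level of 8 members in CPM (vertical axes, from 0) in control (grey) and sildenafil (red) libraries of 4T1, MC38 and LLC. Points are libraries, and lines are the mean and SD of 3. Cpt1a in LLC goes from a mean of 41.3 CPM to 114 CPM, while Cpt2 in the same line goes down and Hadha stays near 130 CPM.

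Both acyl-CoA dehydrogenases were higher with sildenafil in 4T1 and, by less, in MC38. In LLC their means were also higher, by log2 fold changes of 0.12 and 0.11 that did not pass the threshold in the main fit. Acadl (chromosome 1, 66830839 to 66863277, minus strand) had 77.6, 79.9 and 76.0 CPM in 4T1 controls and 121, 120 and 113 CPM with sildenafil (log2 0.58 ± 0.04). MC38 had 40.0, 40.7 and 42.3 CPM in controls and 44.6, 45.9 and 45.9 CPM with sildenafil. The MC38 groups did not overlap, and Acadl rose there by a log2 fold change of 0.15 ± 0.04 (edgeR adjusted p = 0.0116). DESeq2 did not make that call (adjusted p = 0.052), nor did edgeR without the first MC38 control (adjusted p = 0.0538). In LLC the values were 84.0, 73.0 and 69.9 CPM in controls and 86.3, 82.1 and 81.9 CPM with sildenafil (log2 0.12 ± 0.07). The first LLC control lay within the treated range. Acadl in LLC passed the threshold with Gm26917 as a covariate (log2 0.26), in the fit over 18 libraries (0.14) and without the first control (0.21).

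Acadm, on chromosome 3 from 153922357 to 153944632 on the minus strand, had 54.6, 52.6 and 53.2 CPM in 4T1 controls. With sildenafil it stood at 76.2, 75.8 and 77.0 CPM (log2 0.50 ± 0.03). MC38 controls had 49.7, 50.2 and 45.1 CPM and treated MC38 libraries 56.1, 56.6 and 54.4 CPM. Acadm rose in MC38 by 0.20 ± 0.05 on the log2 scale (edgeR adjusted p = 0.00263), with no overlap. LLC stood at 56.2, 55.9 and 60.5 CPM in controls and at 62.3, 64.6 and 61.98 CPM with sildenafil (log2 0.11 ± 0.05), a small gap between groups that did not pass the threshold. Acadm in LLC did pass in the fit over 18 libraries (log2 0.13) and without the third control (0.15). The count ratio of Acadl to Acadm kept a like range in both groups of each line: 1.42 to 1.52 and 1.46 to 1.59 in 4T1, 0.805 to 0.938 and 0.796 to 0.844 in MC38, and 1.16 to 1.496 and 1.27 to 1.38 in LLC.

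Hadha, the alpha subunit of the trifunctional protein, was lower with sildenafil in MC38. MC38 controls had 134, 126 and 126 CPM and treated libraries 114, 118 and 112 CPM. Those groups did not overlap, and Hadha fell by 0.16 ± 0.04 on the log2 scale (edgeR adjusted p = 0.00173). In 4T1 the values were 132, 134 and 128 CPM and 131, 129 and 129 CPM (log2 -0.04 ± 0.03). LLC had 127, 127 and 135 CPM in controls and 130, 126 and 131 CPM with sildenafil (log2 -0.03 ± 0.04). The groups overlapped in both of those lines.

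The beta subunit gene, Hadhb, lies head to head with Hadha on chromosome 5: Hadha runs from 30118304 to 30155162 on the minus strand and Hadhb from 30155248 to 30184593 on the plus strand, with starts 86 bases apart. The gap between them, printed above, carries 2 GC boxes. Hadhb, which is not among the 9 genes, also fell in MC38 (log2 -0.22 ± 0.04, edgeR adjusted p = 0.000338) and fell in 4T1 (log2 -0.16 ± 0.03, edgeR adjusted p = 0.000656), where the call was lost with Gm26917 as a covariate (adjusted p = 0.786). In LLC its log2 fold change was -0.0031 ± 0.054 (edgeR adjusted p = 0.971). The count ratio of Hadha to Hadhb was 1.62 ± 0.04 (SD, n = 3) in 4T1 controls and 1.77 ± 0.02 with sildenafil, ranges that did not overlap. It was 1.27 ± 0.06 and 1.32 ± 0.07 in MC38, and 1.43 ± 0.05 and 1.40 ± 0.02 in LLC, with overlap in both. Hadha shares 75 exon bases, or 0.86% of its exon length, with Garem2 on the other strand. None of the other 8 members shares exon bases with another gene.

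**Figure D2:**
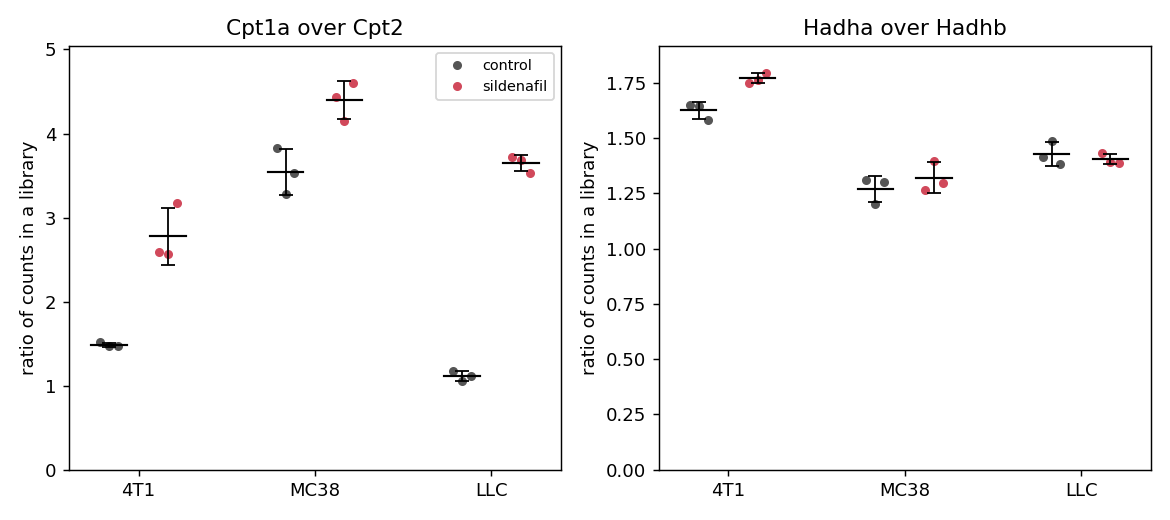
Ratio of counts within a library (vertical axes, from 0) for Cpt1a over Cpt2 and Hadha over Hadhb, by line, in control (grey) and sildenafil (red) libraries. Points are libraries, and lines are the mean and SD of 3. Cpt1a over Cpt2 in LLC goes from 1.12 to 3.65, while Hadha over Hadhb stays between 1.204 and 1.796 in all 18 libraries.

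The PPAR targets Pdk4 and Angptl4 were each limited to some lines. Pdk4 (chromosome 6, 5483351 to 5496309, minus strand) had counts only in LLC beyond a single count, with 51, 59 and 45 counts in controls and 66, 54 and 65 with sildenafil. The corresponding levels, 1.73, 2.166 and 1.45 CPM and 2.24, 1.85 and 2.01 CPM, overlapped (log2 0.18 ± 0.19). No MC38 library held a count of Pdk4, which allows at most 0.0339 CPM in the controls and 0.0316 CPM with sildenafil. In 4T1, 2 of the control libraries held 1 count each and the treated libraries none.

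Angptl4 moved in opposite directions in LLC and MC38. It lies on chromosome 17 from 33773750 to 33781830 on the minus strand. In LLC it had 42, 41 and 59 counts in controls and 133, 175 and 214 with sildenafil, which is 1.42, 1.51 and 1.90 CPM and 4.516, 6.0004 and 6.625 CPM, a fold change of 3.496 (log2 1.81 ± 0.18). MC38 held far more of it, at 41.9, 42.5 and 41.4 CPM in controls, and 39.4, 36.7 and 35.2 CPM with sildenafil. Angptl4 fell in MC38 by 0.18 ± 0.05 on the log2 scale (edgeR adjusted p = 0.00801), with no overlap between groups. That call was lost when all 18 libraries were fitted together (edgeR adjusted p = 0.124). In 4T1 it had 4, 1 and 5 counts in controls and 4, 4 and 2 with sildenafil, and was not tested. Even after treatment, LLC held less Angptl4 than any MC38 library.

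In the MC38 test 7 of the 9 genes passed the filter on low counts. Of these, 3 rose (Cpt1a, Acadl and Acadm), 2 fell (Hadha and Angptl4), and Cpt2 and Ppard did not pass. Over all 13363 genes tested in MC38, 19.5% rose and 18.3% fell, so that calls in both directions were common. The median log2 fold change of the 7 was -0.09, beside 0.004 over all genes. With Gm26917 as a covariate, edgeR called 0 of the 7 in MC38, and 4 had an unadjusted p under 0.05. Without the covariate DESeq2 called 4 of them and limma-voom 5. With the covariate the log2 fold change of Cpt1a was 0.25 ± 0.10 (edgeR adjusted p = 0.135), that of Acadl 0.27 ± 0.10 (adjusted p = 0.127), that of Acadm 0.0026 ± 0.11 (adjusted p = 0.991), that of Hadha -0.26 ± 0.09 (adjusted p = 0.0795) and that of Angptl4 -0.28 ± 0.12 (adjusted p = 0.178). Treatment accounted for 0.85 of the variance of Gm26917 in MC38, so the fit with the covariate can hardly separate treatment from Gm26917.

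In the 4T1 and LLC contrasts, which chose the genes, the counts of members past the threshold are a description and not a test. Cpt1a is counted in both, and its rise there chose the set. In 4T1, 5 of 6 tested members were called higher (Cpt1a, Acadl, Acadm, Cpt2 and Ppard) and 0 lower, where 33.5% of 13914 genes were called higher and 33.3% lower. In LLC, 2 of 8 were called higher (Cpt1a and Angptl4) and 1 lower (Cpt2), where 15.1% of 13561 genes were called higher and 12.2% lower. The call of Ppard in 4T1 was lost under most alternatives. In LLC, DESeq2, the replicate block, the fit over 18 libraries and the fit without the third control called Ppard lower. The median over the tested members was 0.32 in 4T1 and 0.12 in LLC, beside 0.0023 and -0.0062 over all genes. Treatment accounted for 0.97 of the variance of Gm26917 in 4T1, so a fit with it as a covariate can hardly separate them there. In that fit Cpt1a stood at 0.26 ± 0.25. The share of the variance was 0.46 in LLC, where Cpt1a stood at 1.49 ± 0.06 and Angptl4 at 1.42 ± 0.18 with the covariate.

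Differences of response between lines are given as sizes with their SE from a fit over all 18 libraries, and they were not tested, since 2 of the lines chose the genes. For Cpt1a the log2 fold change in LLC exceeded that in 4T1 by 0.40 ± 0.08 and that in MC38 by 1.24 ± 0.08. For Acadl the difference was -0.45 ± 0.07 for MC38 minus 4T1 and -0.46 ± 0.07 for LLC minus 4T1. Acadm had the same order, with -0.31 ± 0.06 for MC38 minus 4T1 and -0.38 ± 0.06 for LLC minus 4T1. Between LLC and MC38 the responses of Acadl and Acadm differed by -0.0076 ± 0.08 and -0.07 ± 0.06. For Cpt2 it was -0.40 ± 0.07 for LLC minus 4T1, and for Angptl4 2.00 ± 0.17 for LLC minus MC38.

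**Figure D3:**
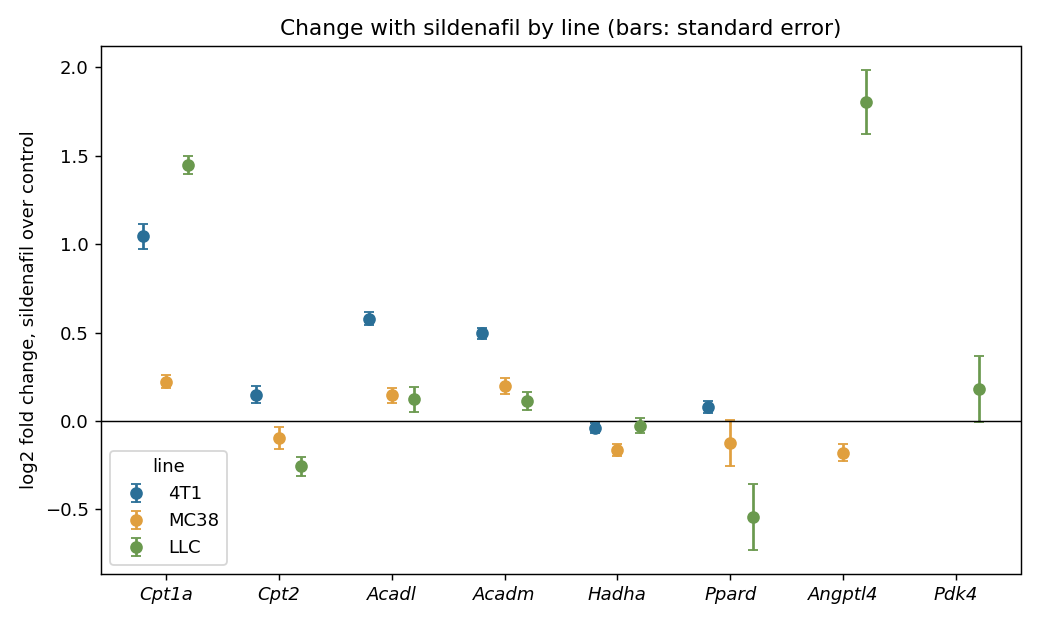
Log2 fold change, sildenafil over control (vertical axis), of 8 members in 4T1, MC38 and LLC, with bars for the SE (3 libraries a group). Genes not tested in a line have no point. Cpt1a lies at 1.04, 0.22 and 1.45, and Angptl4 at -0.18 in MC38 and 1.81 in LLC.

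In untreated cells Hadha did not pass the test between any 2 lines, Acadm differed by small amounts that passed, and the receptor Ppard and both targets differed widely. For Hadha the log2 difference was -0.03 ± 0.04 between MC38 and 4T1 (edgeR adjusted p = 0.433), -0.02 ± 0.04 between LLC and 4T1 (adjusted p = 0.647) and 0.01 ± 0.04 between LLC and MC38 (adjusted p = 0.77). Its direction between lines turned under other scalings, and each comparison passed under some setting. With library totals alone, MC38 against 4T1 gave -0.14 (edgeR adjusted p = 0.00116) and LLC against MC38 gave 0.11 (adjusted p = 0.00833). The latter also passed with protein-coding genes only (adjusted p = 0.0311), and LLC against 4T1 passed with the filter at 5 CPM (adjusted p = 0.00189). Acadl was lower in MC38 than in 4T1 (log2 -0.92 ± 0.05, edgeR adjusted p = 1.3e-13) and did not pass between LLC and 4T1 (log2 -0.04 ± 0.05, adjusted p = 0.451), a value whose sign also turned with the scaling. Acadm was lower in MC38 than in 4T1 (log2 -0.15 ± 0.04, edgeR adjusted p = 0.00356) and higher in LLC than in MC38 (log2 0.25 ± 0.04, adjusted p = 1.82e-05). Between LLC and 4T1 its log2 difference was 0.11 ± 0.04 (edgeR adjusted p = 0.0257), a call lost without a filter, without the second or the third 4T1 control and without the third LLC control. The call between MC38 and 4T1 was lost with the filter at 5 CPM. Cpt2 was higher in LLC than in 4T1 (log2 0.98 ± 0.05, edgeR adjusted p = 2.75e-14) and than in MC38 (log2 1.04 ± 0.05, adjusted p = 2.61e-14). Cpt1a was highest in MC38, with a log2 difference of 1.19 ± 0.06 from 4T1, and LLC minus MC38 was -0.62 ± 0.06. These Cpt1a values are a description with no test.

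Ppard, Angptl4, Pdk4 and Ppara each differed several-fold between some untreated lines. Ppard in MC38 lay below 4T1 (log2 -3.82 ± 0.14, edgeR adjusted p = 1.56e-13), and in LLC below 4T1 (log2 -2.24 ± 0.12, adjusted p = 2.25e-11). Angptl4 was lower in LLC than in MC38 (log2 -4.70 ± 0.12, edgeR adjusted p = 3.94e-20), and 4T1 controls held 10 counts of it in all, 0.068 CPM, against 41.9 CPM in MC38. The measured level of Pdk4 in LLC controls was 52.0-fold the floor of MC38 controls, taking 3 counts over the MC38 group as that floor. Ppara, the other way round, stood in MC38 controls at 9.41-fold the floor of 4T1 controls and 5.63-fold that of LLC controls, from a sum of 17 counts. The error of the measured level is not in these folds, so they are not lower bounds. Ppara had too few counts to be tested. Of the 8 members fitted between untreated lines, 5 passed between MC38 and 4T1, 6 between LLC and 4T1 and 7 between LLC and MC38. Cpt1a is counted in each, although its control levels took part in the choice and its values are no test. The background was as high, since 84.8%, 87.0% and 77.0% of 16040 genes passed in the same 3 comparisons. Pdk4 is counted in both comparisons with LLC, but it entered the fit only through LLC, where it is present.

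Per kilobase of exon, Acadl had the highest value of the 9 in every group. It stood at 38.8 ± 0.99 CPM per kilobase (SD, n = 3) in 4T1 controls, 20.5 ± 0.60 in MC38 controls and 37.7 ± 3.70 in LLC controls. The length counts every base that is exon in any annotated transcript: 2005 for Acadl, 8730 for Hadha and 7642 for Cpt1a. It can exceed the length of the transcript made, so the order of genes and any match between them hold for this length only. Hadha and Acadm followed in 4T1 and MC38 controls, with 15.1 ± 0.37 and 13.7 ± 0.25 CPM per kilobase in 4T1. In LLC controls Cpt2, Hadha and Acadm lay within their spread of each other, at 15.4 ± 0.47, 14.9 ± 0.54 and 14.7 ± 0.66 CPM per kilobase. Cpt1a stood at rank 6 in 4T1 controls and at rank 5 in the controls of the other lines. With sildenafil it kept those ranks in 4T1 and MC38, and in LLC it went from 5.40 ± 0.29 to 14.9 ± 0.25 CPM per kilobase, level with Hadha at 14.8 ± 0.28. Angptl4 stood at 11.8 ± 0.16 CPM per kilobase in MC38 controls, within the spread of Acadm at 12.4 ± 0.71.

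**Figure D4:**
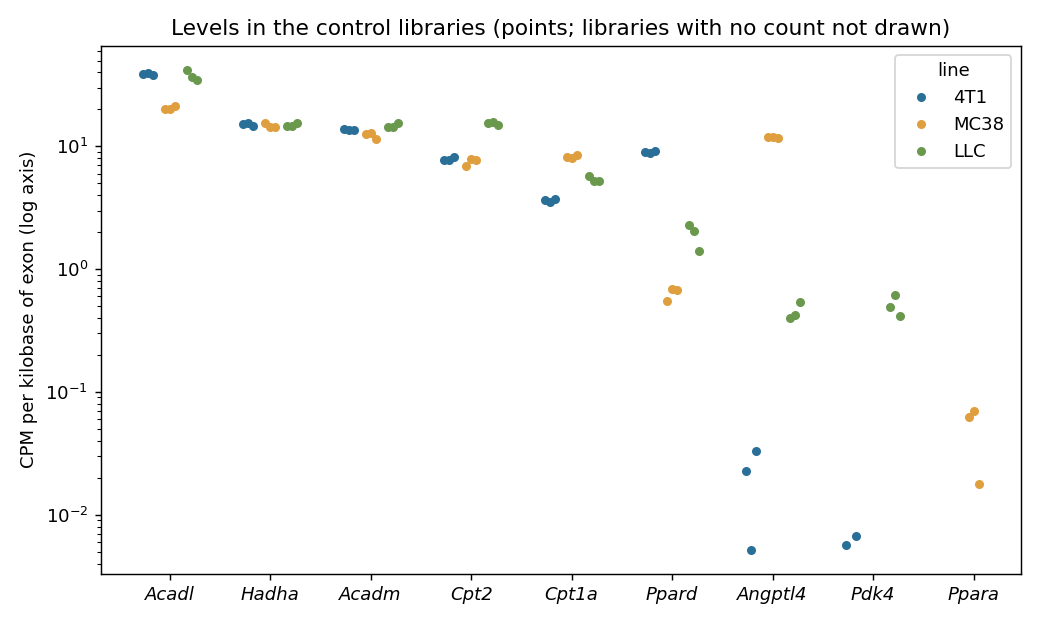
Level of the 9 members in the control libraries, in CPM per kilobase of exon on a log axis, by line. Points are libraries, and libraries with no count are not drawn. Hadha nearly coincides in the 3 lines, while Ppard, Angptl4 and Pdk4 differ by an order of magnitude or more.

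Around the 9 genes, 8 lists name 128 other genes of the pathway. Of these, 127 are in the count table, and 96, 94 and 91 were tested in the fits of 4T1, MC38 and LLC. Over all genes tested, 33.5% rose and 33.3% fell in 4T1, 19.5% and 18.3% in MC38, and 15.1% and 12.2% in LLC. Each list's counts below are to be read beside these shares. With Gm26917 as a covariate the calls given below were lost for Slc25a20, Acaca, Mlycd, Acadvl, Rxra, Pdk2 and Angptl2 in 4T1. In MC38 they were lost for Slc25a20, Acacb, Mlycd, Etfdh, Hacl1, Pprc1, Lipa, Angptl2 and Angptl6. Since treatment accounted for 0.97 of the variance of Gm26917 in 4T1 and 0.85 in MC38, this fit can hardly separate treatment from Gm26917. A call lost in it does not show that the gene was unchanged. Of the 16 genes of fatty acid activation and of the carnitine shuttle that were tested, 12 rose and 0 fell in 4T1 (median log2 0.65), 8 rose and 2 fell in MC38 (median 0.11), and 6 rose and 2 fell in LLC (median 0.13). The carnitine carrier Slc25a20, which works between Cpt1a and Cpt2, rose in all lines: from 8.33, 9.07 and 9.11 CPM to 13.1, 12.4 and 12.2 CPM in 4T1 (log2 0.49 ± 0.06, edgeR adjusted p = 9.13e-06), by 0.19 ± 0.05 in MC38 (adjusted p = 0.00955) and by 0.48 ± 0.06 in LLC (adjusted p = 0.000646). The MC38 value did not pass with DESeq2 (adjusted p = 0.0514), and it was 0.042 with Gm26917 as a covariate (edgeR adjusted p = 0.896). The acyl-CoA synthetase Acsl3 rose by 0.84 ± 0.03 in 4T1, 0.99 ± 0.05 in MC38 and 0.31 ± 0.05 in LLC on the log2 scale. Its relative Acsl4 rose by 1.09 ± 0.03 in 4T1 and 0.58 ± 0.04 in MC38.

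The genes for the enzymes that make malonyl-CoA, the inhibitor of Cpt1a, moved as well. Acaca, the cytosolic acetyl-CoA carboxylase, rose in each line, by 0.58 ± 0.03 in 4T1, 0.48 ± 0.05 in MC38 and 0.36 ± 0.05 in LLC (edgeR adjusted p = 1.76e-09, 0.000128 and 0.00118). Acacb, the mitochondrial form, rose from 7.19, 7.77 and 7.14 CPM to 23.0, 22.6 and 25.4 CPM in 4T1 (log2 1.66 ± 0.06, edgeR adjusted p = 1.23e-10). In MC38 Acacb fell (log2 -0.65 ± 0.13, adjusted p = 0.00116), and in LLC its log2 fold change was -0.24 ± 0.12 (adjusted p = 0.139; without the third control -0.32, adjusted p = 0.0337). Mlycd, which breaks malonyl-CoA down, rose by 0.87 ± 0.07 in 4T1 and 0.41 ± 0.06 in MC38. Of the other forms of Cpt1, the muscle form Cpt1b stood at or under 4.32 CPM in every library and passed in no line, but did so in 4T1 without the third control (edgeR adjusted p = 0.047). The brain form Cpt1c rose in 4T1 (log2 0.68 ± 0.12, edgeR adjusted p = 0.000251) at levels of 2.51 to 4.84 CPM. It stood at 6.49 to 9.19 CPM in LLC and at 0.25 to 0.60 CPM in MC38, and did not pass in either.

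Among 17 other mitochondrial beta oxidation genes, 10 rose and 4 fell in 4T1 (median log2 0.21), 5 rose and 5 fell in MC38 (median 0.0091), and 4 rose and 1 fell in LLC (median 0.05). Over all genes, 33.5% rose and 33.3% fell in 4T1, 19.5% and 18.3% in MC38, and 15.1% and 12.2% in LLC. Etfdh, which passes electrons from the acyl-CoA dehydrogenases to the respiratory chain, rose by 0.63 ± 0.04 in 4T1, 0.20 ± 0.04 in MC38 and 0.26 ± 0.04 in LLC. Acadvl, the very-long-chain dehydrogenase, rose in 4T1 (log2 0.21 ± 0.03) and LLC (0.18 ± 0.05) and fell in MC38 (-0.21 ± 0.04; edgeR adjusted p = 8.79e-05, 0.017 and 0.000491). The LLC call was lost without the first control, without any of the 3 sildenafil libraries, and with Gm26917 as a covariate (edgeR adjusted p from 0.0566 to 0.0694). Echs1, the short-chain enoyl-CoA hydratase, rose by 0.24 ± 0.05 in 4T1 and 0.44 ± 0.05 in MC38 and fell in LLC (-0.15 ± 0.04), a call lost on leaving out most single LLC libraries. Of the peroxisomal genes, 12 of 17 rose and 1 fell in 4T1 (median 0.50), 9 of 16 rose and 0 fell in MC38 (median 0.20), and 5 of 16 rose and 1 fell in LLC (median 0.09). Hacl1, a lyase of fatty acid alpha oxidation, rose by 1.41 ± 0.06 in 4T1 and 0.97 ± 0.09 in MC38.

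PPAR partners and other PPAR targets had calls in both directions. Of the partners and cofactors, 2 rose and 3 fell of 14 tested in 4T1, likewise 2 and 3 of 14 in MC38, and 2 and 2 of 15 in LLC, with medians of -0.03, -0.03 and -0.18. Over all genes, 33.5% rose and 33.3% fell in 4T1, 19.5% and 18.3% in MC38, and 15.1% and 12.2% in LLC. The partner counts lie near these shares in MC38 and LLC and below them in 4T1, so they set this list apart in neither of the first. The receptor partner Rxra rose in 4T1 (log2 0.23 ± 0.03, edgeR adjusted p = 3.69e-05) and LLC (0.41 ± 0.05, adjusted p = 0.000392). Lpin1, a phosphatidate phosphatase that also acts as a PPAR coactivator, rose from 9.74, 9.26 and 9.20 CPM to 55.1, 54.7 and 60.8 CPM in 4T1 and by a log2 fold change of 2.09 ± 0.03 in MC38 (edgeR adjusted p = 8.78e-13 and 4.13e-16). In LLC it had -0.21 ± 0.08 and did not pass (adjusted p = 0.0612), but did so in the fit over 18 libraries (adjusted p = 0.0119). The coactivator Ppargc1a had 1.39, 1.54 and 1.32 CPM in LLC controls and rose to 2.31, 2.47 and 2.32 CPM (log2 0.72 ± 0.16, edgeR adjusted p = 0.00805), a call lost in the fit over 18 libraries (adjusted p = 0.0532). It stood at or under 0.171 CPM in the other lines. Ppargc1b passed in no line (it did without the second 4T1 sildenafil library or the third LLC control), and the related coactivator Pprc1 fell by 1.13 ± 0.04 in 4T1 and by 0.57 ± 0.10 in MC38.

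Of the 22 other PPAR targets, only 9, 8 and 7 passed the filter in 4T1, MC38 and LLC. Among them 5 rose and 1 fell in 4T1 (median 0.32), 3 rose and 1 fell in MC38 (median 0.38), and 1 rose and 2 fell in LLC (median -0.22). The shares over all genes are those given for the partners above. Plin2, which coats lipid droplets, had the same signs as Angptl4 in MC38 and LLC. In LLC it rose from 44.2, 43.5 and 48.7 CPM to 63.3, 69.9 and 70.2 CPM (log2 0.56 ± 0.06, edgeR adjusted p = 0.000237), and in MC38 it fell from 237, 240 and 240 CPM to 200.3, 195 and 189 CPM (log2 -0.30 ± 0.03, adjusted p = 1.72e-06). In 4T1 Plin2 rose by 0.74 ± 0.03 (adjusted p = 2.23e-10). Lpl, the lipase that Angptl4 inhibits, had counts only in LLC, where it fell from 30.2, 31.6 and 28.7 CPM to 23.7, 21.98 and 21.8 CPM (log2 -0.44 ± 0.06, edgeR adjusted p = 0.000964).

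Other pyruvate dehydrogenase kinases were present where Pdk4 was not. Pdk1 rose in 4T1 (log2 0.49 ± 0.05) and MC38 (0.78 ± 0.03) and fell in LLC (-0.39 ± 0.05; edgeR adjusted p = 6.38e-07, 7.69e-11 and 0.000505). Its LLC controls stood at 293, 309 and 312 CPM. Pdk2 rose in 4T1 by 1.42 ± 0.09, and the phosphatase Pdp2, which reverses the kinases, rose by 1.21 ± 0.05 in 4T1 and 0.63 ± 0.04 in MC38. Of the list, 6 rose and 3 fell of 12 in 4T1, 3 and 2 of 12 in MC38, and 2 and 4 of 11 in LLC, with medians of 0.08, 0.05 and -0.07. The MC38 counts lie near the shares over all genes there, 19.5% higher and 18.3% lower.

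Genes of lipolysis and lipid droplets rose in most cases, with 6 of 8 higher and 2 lower in 4T1 (median 0.60), 6 of 8 and 0 in MC38 (median 0.29) and 4 of 7 and 0 in LLC (median 0.25). Lipa, the lysosomal acid lipase that frees fatty acids and cholesterol, rose in each line, from 13.2, 13.4 and 12.9 CPM to 37.1, 37.2 and 38.3 CPM in 4T1 (log2 1.49 ± 0.04), by 0.42 ± 0.04 in MC38 and by 0.65 ± 0.06 in LLC (edgeR adjusted p = 1.02e-11, 2.93e-06 and 0.000101). Of the relatives of Angptl4, 1 of 3 tested rose in 4T1, 2 of 3 rose and 1 fell in MC38, and 2 of 2 fell in LLC (medians 0.05, 0.26 and -1.04). Angptl2 rose in 4T1 (0.24 ± 0.03) and MC38 (0.26 ± 0.03) and fell in LLC (-0.50 ± 0.06). Angptl6 rose in MC38 (1.31 ± 0.18) and fell in LLC (-1.58 ± 0.14), the reverse of Angptl4 in both lines. Over all lists 54 of 96 tested genes rose and 14 fell in 4T1, 38 of 94 and 14 in MC38, and 24 of 91 and 14 in LLC. The medians were 0.24, 0.06 and 0.0097, and the shares over all genes are those given above. With Gm26917 as a covariate 23 list genes instead of 68 passed in 4T1 and 15 instead of 52 in MC38, and without the third sildenafil library 25 instead of 38 passed in LLC.

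**Figure D5:**
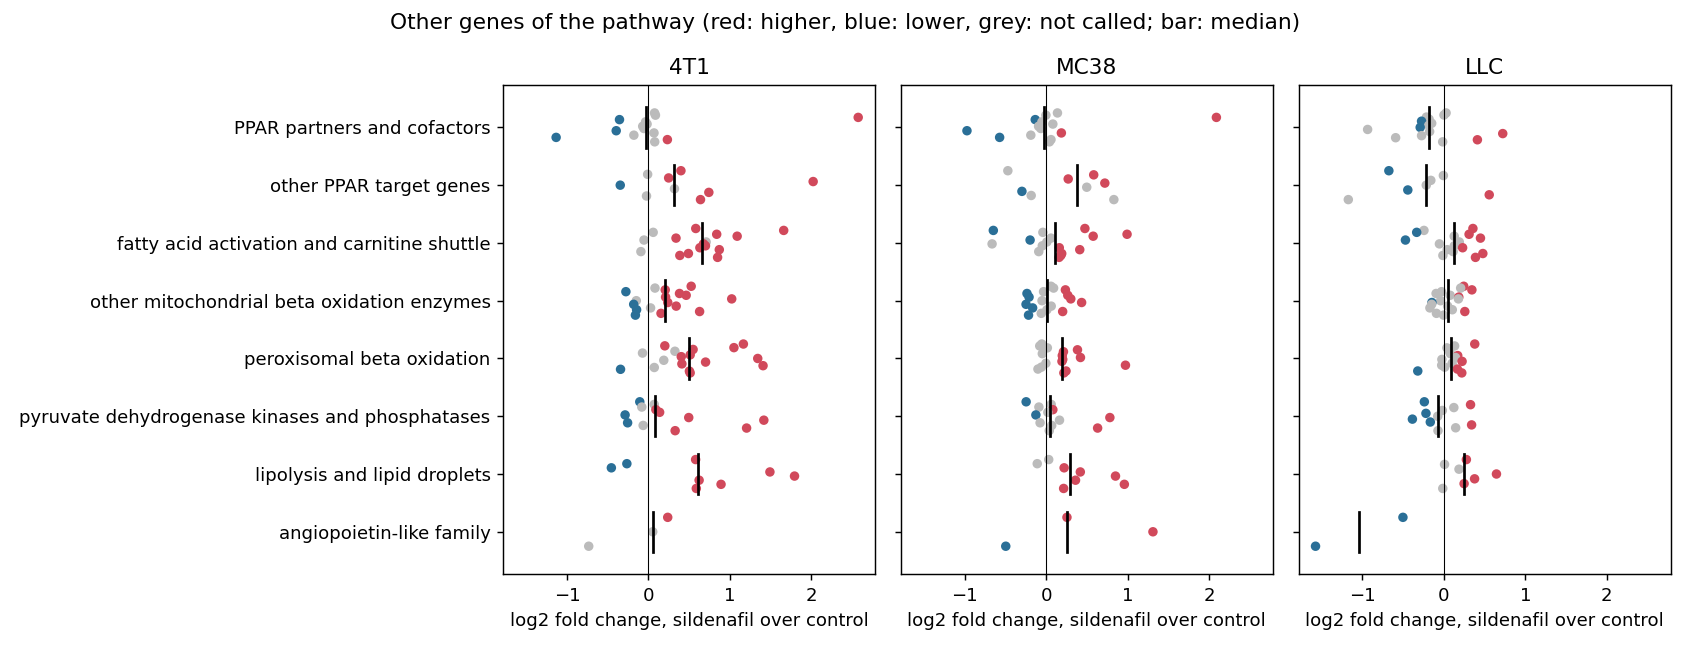
Log2 fold change, sildenafil over control (horizontal axes), of the tested genes of 8 pathway lists in 4T1, MC38 and LLC. Points are genes (red rose, blue fell, grey did not pass), and the black bar is the list's median. The fatty acid activation and carnitine shuttle genes lie mostly to the right in 4T1, with a median of 0.65, and closer to 0 in MC38 and LLC, at 0.11 and 0.13.

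Likeness to Cpt1a was taken on log2 levels minus the mean of each line, among 10276 protein-coding genes with a mean of at least 5 CPM. It follows differences within a line, such as those with sildenafil, and not levels between lines. The genes most like Cpt1a over the 18 libraries were Itm2b (Pearson r = 0.99), Pdgfra, Spata13, Zcchc24, Tap2 and Mmp14 (r = 0.98 for the last). Those that ran most opposite were Cry1, Hspa9 and Hmga1 (r = -0.97 for each). Among the 9 genes themselves r was 0.72 for Acadm, 0.72 for Acadl, 0.68 for Angptl4, -0.20 for Hadha, -0.30 for Cpt2 and -0.45 for Ppard. The libraries share lines and treatments, so these values describe 6 groups rather than 18 independent points.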

How the data were processed

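RNA was measured in 18 libraries, 3 in each of 6 groups taken from the labels. The values the authors deposited are expected counts. The submitters' processing notes name RSEM 1.3.1, STAR 2.7.0f, cutadapt 1.18 and bcl2fastq 2.17, with build mm10. Annotation release and strand use: not given in the sources used here. Reads of overlapping or antisense genes may therefore be mixed. Per the labels, the kit was stranded and selected polyA mRNA, with 100 cycles per read. All 55450 identifiers and symbols matched GENCODE M21, the source of positions and exon lengths.

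Expected counts were rounded. Each line's 6 libraries were fitted over all genes in R 4.3.3 with edgeR 4.0.16 (default filter, TMM factors, robust quasi-likelihood F test), with Benjamini-Hochberg adjustment over all genes tested and a threshold of 0.05. The SE is the size of the log2 fold change divided by the square root of F. Control lines were compared, and responses subtracted, in a fit over 18 libraries. The test was run on simulated data with fold changes larger than those of the members in MC38, so that run does not bear on those calls. Floors of 3 counts cover counting error only. Plots were drawn with matplotlib 3.10.9.

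The members and lists were chosen with earlier results of these data known. The rule for names took the 9 members, 18 pathway genes whatever their values and, per list and line, the 3 called genes with the smallest adjusted p at a mean of at least 1 CPM. It also took the 6 genes most like Cpt1a and the 3 most opposite. Not every gene it names is printed, and a few are left unreported here. Lpl is named for LLC by this rule. Alternatives were DESeq2 1.42.0, limma-voom (limma 3.58.1), RLE factors, library totals alone, no filter, at least 5 CPM in 3 libraries, protein-coding genes only, a replicate block, Gm26917 as a covariate, 18 libraries in 1 fit, control libraries alone, and each library left out.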

Additional observations from a re-analysis of the deposited data

Results flagged for a closer look

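Cpt2 went opposite ways in LLC and 4T1. Every treated 4T1 library lay above every control, and every treated LLC library lay below, and the log2 fold change in LLC minus that in 4T1 was -0.41. Angptl4 did the same in LLC and MC38, with a difference of 1.99 for LLC minus MC38 between the separate fits. Neither difference was tested, because the LLC and 4T1 contrasts took part in the choice of the genes.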

How the results depend on the processing

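With Gm26917 as a covariate, the members called fell from 5 to 1 in 4T1 and from 5 to 0 in MC38, and the pathway genes called from 68 to 23 in 4T1 and from 52 to 15 in MC38. In MC38 that edgeR fit had 4 of 7 members at an unadjusted p under 0.05, while DESeq2 called 4 and limma-voom 5 without the covariate. Treatment accounted for 0.97 and 0.85 of the variance of Gm26917 in these lines. The covariate fit can therefore hardly separate treatment from Gm26917 there, and a lost call does not show that a gene was unchanged. The covariate also turned Ppard to -0.034 in 4T1 and 0.25 in MC38, Cpt2 to 0.066 and Med1 to 0.038 in MC38, and Ppargc1b to 0.39 in 4T1. In LLC, 6 members instead of 3 were called when all 18 libraries were fitted together. Here and below, member counts in 4T1 and LLC are a description and not a test, since those contrasts chose the genes.

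Leaving out each library gave 3 to 5 members called in 4T1 (3 without the second control, where Cpt2 and Ppard were lost), 3 to 5 in LLC (5 without the third control, where Ppard and Acadm passed) and 25 to 50 pathway genes in LLC (25 without the third sildenafil library). It moved small changes across 0: Hadha in LLC ran from -0.039 to 0.0075, Hadhb in LLC from -0.040 to 0.054, Cpt1c in LLC from -0.16 to 0.062, Cpt1b in MC38 from -0.16 to 0.13, Acadl in LLC against 4T1 controls from -0.11 to 0.0072, and Hadha from -0.055 to 0.012 in LLC against 4T1 controls and from -0.021 to 0.041 in LLC against MC38 controls.

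Scaling turned values near 0. Against 4T1 controls, LLC controls gave Acadl 0.044 and Hadha 0.067 with DESeq2, RLE factors or protein-coding genes only, 0.049 and 0.072 with control libraries alone, and 0.10 and 0.13 with at least 5 CPM. DESeq2, RLE factors and protein-coding genes only each shifted all genes by a median of 0.085 in that comparison, and control libraries alone by 0.09. The filter at 5 CPM shifted them by 0.14 and brought Hadha past the threshold (edgeR adjusted p = 0.00189). In MC38 against 4T1 controls that filter gave Cpt2 0.026 and Hadha 0.056, and library totals alone moved the median by -0.11. Without a filter Hadha was -0.008 between LLC and MC38 controls. Hadha in 4T1 was 0.031 with library totals alone, Hadhb in LLC was 0.0063 with library totals, 0.007 without a filter and 0.016 in the fit over 18 libraries, and Cpt1b in MC38 was -0.021 with limma-voom. The cause of these turns was not tested.

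Same-numbered libraries did not correlate above 0.1 in every pair (4T1 0.06, 0.24 and -0.01), and they share only a number. With a replicate block 4, 5 and 4 members and 68, 55 and 41 pathway genes were called in 4T1, MC38 and LLC, and Cpt1b in MC38 was -9e-04. Counts of 15 or fewer, as for Ppara, and of under 70, as for Pdk4, limit what depth can show.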
